A study of Mus musculus with 9 samples.

Results

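Nod2 and 8 other genes of bacterial cell wall sensing and digestion (Nod1, Ripk2, Card9, Slc15a3, Slc15a4, Pglyrp1, Lyz1 and Lyz2) were followed in mouse splenic monocytes. The 9 genes were chosen by symbol among the 46072 genes of the deposited tables, and each symbol had 1 row. Nod2 was put first because its lower level after lipid treatment was already known from these libraries, so its values are given as a description without a test. The other 8 genes were tested.

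RNA sequencing was performed on 9 libraries from female C57BL/6 mice that fell into 3 groups of 3. The Con group received water by gavage over 6 days. The Van group received vancomycin, an antibiotic, over the same 6 days, at a daily dose of 2 mg per mouse split into 2 gavages of 1 mg. VanLip mice received the same vancomycin course and then L654 by the retro-orbital route on days 7, 9 and 11. L654 is a lipid of bacteria of the phylum Bacteroidota, and the study purified it from Porphyromonas gingivalis. After the gavage all groups rested without antibiotic, for 6 to 8 days in the labels and for 8 days in the study's account of these libraries, and the L654 injections fell within this rest. No injection of the Con or Van mice is given in the labels. Monocytes were purified by magnetic depletion of other spleen cells and were not stimulated before RNA extraction. The 3 libraries of a group are biological replicates, and the study names 3 mice per group for RNA sequencing. In such bulk RNA, fewer cells of a type and less RNA per cell cannot be told apart.

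NOD2 is a receptor in the cytosol for muramyl dipeptide, a fragment of the peptidoglycan wall of bacteria, and its relative NOD1 detects a different peptidoglycan fragment that contains diaminopimelic acid. Both receptors bind the kinase RIPK2, which passes the signal through ubiquitin ligases to NF-kB and MAP kinases. Wall fragments reach the cytosol through the endosomal transporters SLC15A3 and SLC15A4, and lysozymes cut the sugar backbone of the wall and so release or destroy these fragments.

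The VanLip libraries were deeper than the others. Total counts were 43070361 to 61383806 per Con or Van library and 170503470 to 184720704 per VanLip library. The low count seen most often was 1.33 in the Con and Van libraries but 2.00 in the VanLip libraries, values that correspond to reads of 100 and of 150 bases at the default of the conversion that the authors used, while the labels give a single read length. Expressed as fragments the range was 16151385 to 23018927 against 42625868 to 46180176. Read length, depth and the VanLip group therefore cannot be told apart, and this holds for each VanLip difference below.

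The label of the cells was compared with marker genes. The summed FPKM (a fragment count scaled to transcript length and library size) of 7 classical monocyte markers was 774.1 to 1811 over the 9 libraries, and that of 8 nonclassical monocyte markers was 2539 to 3534. The sums of the B cell, T cell and NK cell lists stayed at or under 16.8. Of 12 neutrophil markers, Ly6g was at 0 in every library and the sum was 14.2 to 37.7. The 8 red pulp macrophage markers summed to 1489 to 2381, the 6 conventional dendritic cell markers to 83.3 to 120.3 and the 5 platelet markers to 5.42 to 22.7. Erythroid markers moved with the groups: the sum of 6 genes was 99.6 to 202.5 in Con, 342.6 to 771.5 in Van and 278.4 to 1162 in VanLip, and 5 and 6 of the 6 genes were called higher in Van and in VanLip than in Con by DESeq2. The other lists held 0 to 2 calls in either direction in a comparison. Among these, 2 of 6 dendritic cell markers were lower in Van and in VanLip than in Con, 1 and 2 of 12 neutrophil markers were lower in Van and in VanLip than in Con, and 2 of 7 classical and 2 of 8 nonclassical markers were higher in VanLip than in Van. In addition, 1 classical marker was higher and 1 lower in Van than in Con, 1 red pulp macrophage marker was higher in Van than in Con and 1 lower in VanLip than in Van, and 1 dendritic cell marker was higher in VanLip than in Van. Over all genes 4.33% were called with Van against Con, 6.67% with VanLip against Con and 9.85% with VanLip against Van. Of the classical markers, Ccr2 had an FPKM of 158.6 to 173.4 in Con, 70.4 to 98.2 in Van and 156.1 to 256.3 in VanLip. The summed monocyte markers are related to the 8 genes other than Nod2 further below. Otherwise the part of these markers in the results was not tested.

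Nod2 (ENSMUSG00000055994, protein coding) lies on chromosome 8 of GRCm38 from 88647315 to 88688474 on the plus strand and overlaps no other annotated gene. The stretch of 218 bases directly before its annotated start, chr8:88647097-88647314, is shown as genomic context from RefSeq (GRCm38.p6), 5′ to 3′ on the plus strand, with its GC boxes (GGGCGG on either strand, the sequence bound by SP1) in capitals.
Nod2 upstream stretch: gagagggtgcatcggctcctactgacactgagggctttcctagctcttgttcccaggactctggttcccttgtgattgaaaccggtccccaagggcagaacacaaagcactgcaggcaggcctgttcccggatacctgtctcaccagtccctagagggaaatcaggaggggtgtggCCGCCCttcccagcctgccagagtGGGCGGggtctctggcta
Over the 250 bases before the RefSeq start the search found GC boxes at 74, 50 and 17 bases before it, the last of them already inside the annotated gene. A GC box was held by 33.0% of 32536 promoters of the same length. The same window of Nod2 held no match to the NF-kB consensus (7.28% of promoters), to AP-1 (TGANTCA, 6.73%), to TATAAA (12.3%), to the ETS-type motif GGAAGT (19.8%) or to the C/EBP-type motif TTNNGNAA (36.8%), all searched on both strands. Binding at these letters was not measured.

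Nod2 was lowest in VanLip and highest in Con. The Nod2 FPKM was 15.6, 11.6 and 11.6 in the Con libraries, 10.6, 9.47 and 9.06 in the Van libraries and 5.71, 5.98 and 6.60 in the VanLip libraries. On the scale of normalised counts (counts divided by a size factor per library) the Con libraries had 6636.4, 5114.1 and 4921.6, the Van libraries 4634.7, 3961.6 and 3957.2, and the VanLip libraries 2486.8, 2591.7 and 2762.1. Each Con library was above each Van library and each Van library was above each VanLip library, on both scales. Con replicate 1 stood above its group, and the 3 VanLip libraries lay close together.

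The Con mean of the Nod2 normalised count was 5557.4 ± 939.4, the Van mean 4184.5 ± 389.9 and the VanLip mean 2613.5 ± 138.9 (SD, n = 3 each). Van thus stood at 75.3% and VanLip at 47.0% of the Con mean. The log2 fold change of Nod2 was -0.41 (SE 0.12) for Van against Con, -1.09 (SE 0.12) for VanLip against Con and -0.68 (SE 0.12) for VanLip against Van. These comparisons share libraries, as every pair of them has a group in common. Over all alternatives, the value for VanLip against Con ranged from -1.17 to -0.94 and that for VanLip against Van from -0.72 to -0.60. The value for Van against Con ranged from -0.49 to -0.26, and the smallest difference came from the fit without Con replicate 1. With the VanLip libraries thinned to the fragment depth of the others, the values were -1.07 against Con and -0.66 against Van. The erythroid marker sum was higher in each Van and VanLip library than in each Con library, as described above, and its part in the Nod2 values was not tested.

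**Figure D1:**
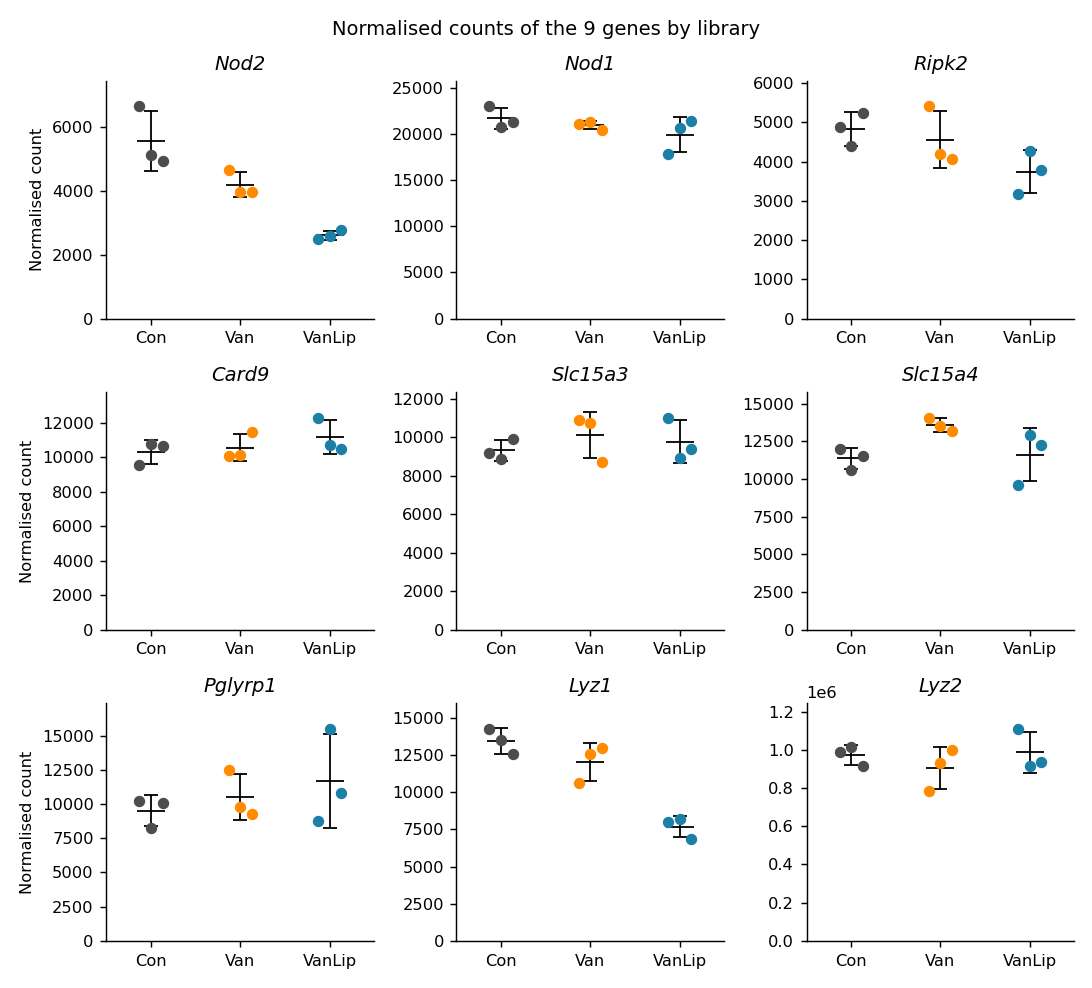
Normalised count (y axis, from 0, own scale per gene) of the 9 genes in each of the 9 libraries by group, with points for libraries, a horizontal mark for the mean and bars for the SD (n = 3). The mean of Nod2 is 5557.4 in Con, 4184.5 in Van and 2613.5 in VanLip, and the 3 VanLip libraries of Lyz1 (6854.1 to 8192.7) lie below the other 6.

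Nod2 was compared with its nearest protein-coding neighbours. Snx20, which encodes a sorting nexin, ends 11186 bases before Nod2 on the minus strand (88626563 to 88636128), and Cyld, which encodes a deubiquitinase that restrains NF-kB signalling, starts 8553 bases after it on the plus strand (88697028 to 88751945). Per library, Snx20 stood at 90.2 to 96.7% of its Con mean in Van and at 74.9 to 83.6% in VanLip. Cyld stood at 82.3 to 87.5% in Van and at 73.2 to 90.1% in VanLip. The corresponding ranges of Nod2 were 71.2 to 83.4% in Van and 44.8 to 49.7% in VanLip, so in VanLip no Nod2 library reached the lowest library of either neighbour. Nod2 was chosen with its low VanLip level known, so this gap follows in part from that choice and is only described.

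Both neighbours were lower in VanLip than in Con. For VanLip against Con the log2 fold change was -0.33 (SE 0.07, DESeq2 adjusted p = 0.000552) for Snx20 and -0.31 (SE 0.09, DESeq2 adjusted p = 0.00977) for Cyld. For VanLip against Van it was -0.23 for Snx20 (DESeq2 adjusted p = 0.0266) and -0.07 for Cyld (DESeq2 adjusted p = 0.739). Neither neighbour passed the threshold for Van against Con, where the values were -0.10 and -0.24 (DESeq2 adjusted p = 0.607 and 0.0942). Whether the changes of the 3 genes differ from one another was not tested.

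**Figure D2:**
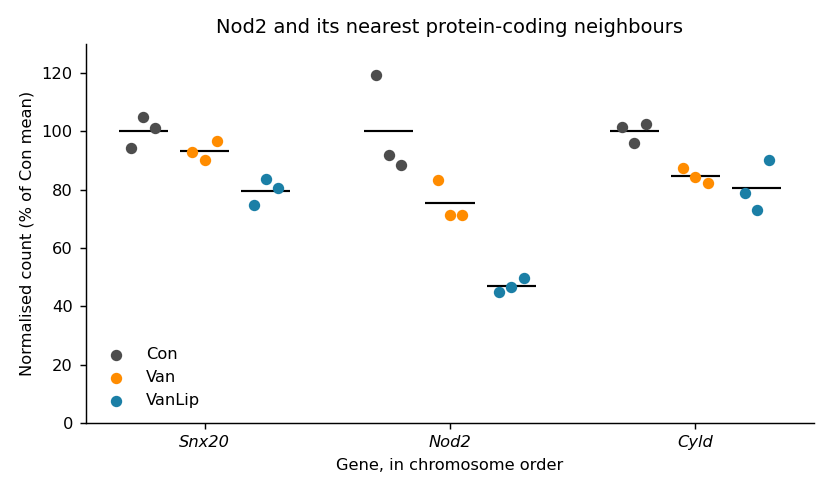
Normalised count of Snx20, Nod2 and Cyld (x axis, in chromosome order) as a percentage of the Con mean of the gene (y axis, from 0), with points for the 9 libraries and a line for each group mean. In VanLip, Nod2 lies at 44.8 to 49.7%, below every library of Snx20 (74.9 to 83.6%) and Cyld (73.2 to 90.1%).

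The genes whose profile over the 9 libraries was most like that of Nod2 were sought among 12215 other genes with a mean normalised count of at least 100, by the Pearson correlation of log2(normalised count + 1). These were Avl9 (r = 0.98), which encodes a protein of the secretory pathway, Fam208b (r = 0.97), the hairpin gene Mir5107 (r = 0.96), Kdm2a (r = 0.96), which encodes a histone demethylase, and Dopey1 (r = 0.96). The short Mir5107 gene is uncertain in libraries of this kind. The 9 points share depth and read length by group, and over the 6 Con and Van libraries alone none of these genes was in the 5 most alike, although Avl9 kept an r of 0.99 and rank 7. A like profile did not mean a like size of difference: the mean FPKM of Avl9 was 9.43 in Con, 8.58 in Van and 7.87 in VanLip, whereas that of Mir5107 was 72.8, 55.4 and 38.6. Of the 8 other cell wall genes, Lyz1 was the nearest to Nod2 (r = 0.89, rank 106), followed by Ripk2 (r = 0.76) and Nod1 (r = 0.68), while Card9 ran the other way (r = -0.62).

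Of the 8 genes other than Nod2, DESeq2 with Benjamini-Hochberg adjustment over all genes called 0 when Van was set against Con, and 1 when VanLip was set against Con or against Van, in both cases Lyz1. Over all genes, 4.33%, 6.67% and 9.85% of those with an adjusted p were called in these comparisons, in that order. For Van against Con, 2.27% were higher and 2.06% lower, for VanLip against Con 2.98% and 3.69%, and for VanLip against Van 4.58% and 5.27%. The excess of lower calls in VanLip depended on the scaling, since 494 higher and 611 lower genes against Con became 657 and 500 with TMM library sizes, and 826 and 951 against Van became 1013 and 809. With a replicate block it also turned, to 623 and 523 against Con and 862 and 782 against Van. For Van against Con, 1 of the 8 had an unadjusted p under 0.05, and neither edgeR nor limma called any. On normalised counts the groups did not overlap for 1, 2 and 2 of the 8 genes, against 25.3%, 25.0% and 29.5% of all genes with a mean of at least 100. With 8 genes these counts lie near the shares over all genes, and nothing is read from them about the set.

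**Figure D3:**
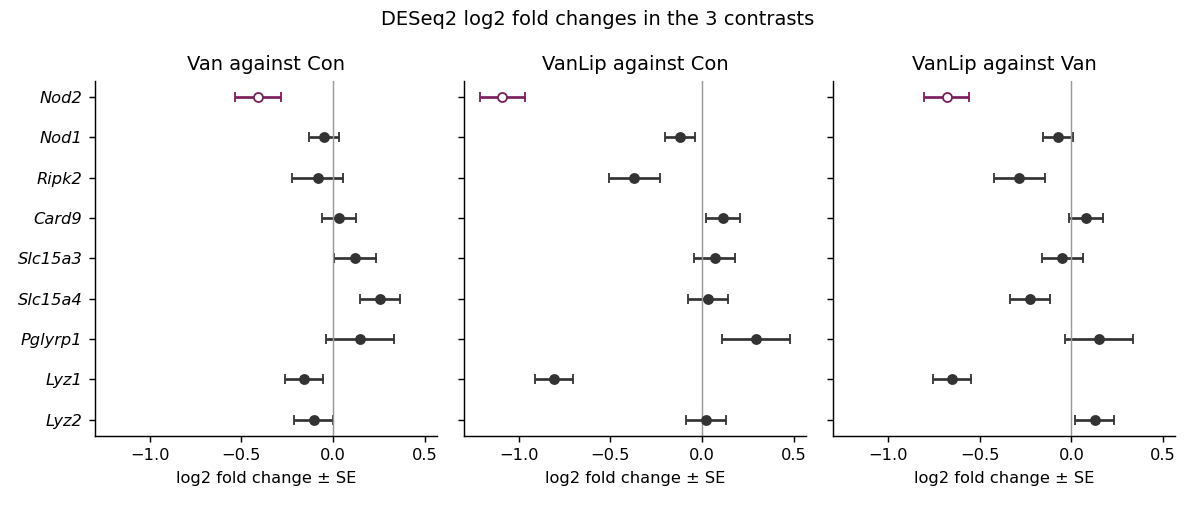
DESeq2 log2 fold change (x axis) with its SE (bars) for the 9 genes (y axis) in the 3 comparisons, where values below 0 are lower in the first group named; Nod2, given without a test, has an open symbol. Nod2 at -1.09 and Lyz1 at -0.81 lie below the other 7 genes, which are between -0.37 and 0.30 for VanLip against Con.

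Nod1 (ENSMUSG00000038058, chromosome 6, 54923949 to 54972612, minus strand), the sister receptor, was the more abundant of the pair. Its FPKM was 54.9, 49.9 and 52.3 in Con, 50.8, 52.7 and 49.5 in Van, and 43.0, 51.0 and 52.4 in VanLip. The groups overlapped, and only VanLip replicate 1 lay below the rest. The log2 fold change was -0.05 (SE 0.08) for Van against Con, -0.12 (SE 0.08) for VanLip against Con and -0.07 (SE 0.08) for VanLip against Van, with DESeq2 adjusted p of 0.899, 0.461 and 0.712. The 95% interval for VanLip against Con was -0.28 to 0.04. On the FPKM scale the ratio of Nod2 to Nod1 was 24.6% ± 3.32 for Con, 19.1% ± 1.64 for Van and 12.5% ± 0.78 for VanLip (SD, n = 3 each), without overlap between the groups.

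Ripk2 (ENSMUSG00000041135, chromosome 4, 16122733 to 16163647, minus strand) encodes the kinase that both receptors share. Its normalised count was 4888.5, 4384.3 and 5244.5 in Con, 5403.2, 4201.7 and 4077.6 in Van, and 3179.2, 4269.3 and 3780.7 in VanLip. Each VanLip library lay under each Con library on this scale, whereas on the FPKM scale VanLip replicate 2 (16.8) was just above Con replicate 2 (16.7). The log2 fold change was -0.37 (SE 0.14, DESeq2 adjusted p = 0.0886, unadjusted p = 0.00797) for VanLip against Con and -0.29 (SE 0.14, DESeq2 adjusted p = 0.211) for VanLip against Van. For Van against Con it was -0.09 (SE 0.14, DESeq2 adjusted p = 0.897). The call for VanLip against Con depended on single libraries, since the adjusted p was 0.0382 without Van replicate 1 and 0.0344 without VanLip replicate 2, in a range of 0.0344 to 0.34 over all alternatives.

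Card9 (ENSMUSG00000026928, chromosome 2, 26352176 to 26360918, minus strand) encodes an adaptor that signals mainly downstream of receptors coupled to the kinase SYK. Its FPKM was 60.9 to 73.4 in Con, 66.6 to 75.4 in Van and 69.6 to 80.4 in VanLip, so that all groups overlapped. Its log2 fold changes were 0.03, 0.11 and 0.08 (SE 0.09 each) for Van against Con, VanLip against Con and VanLip against Van, and none passed (DESeq2 adjusted p = 0.955, 0.58 and 0.721).

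The transporter genes showed no call. Slc15a3 (ENSMUSG00000024737, chromosome 19, 10839727 to 10859362, plus strand) had an FPKM of 33.5 to 36.7 in Con, 32.2 to 39.6 in Van and 36.1 to 42.0 in VanLip. Its log2 fold changes were 0.12, 0.07 and -0.05 (SE 0.11 each, DESeq2 adjusted p = 0.742, 0.826 and 0.879). Slc15a4 (ENSMUSG00000029416, chromosome 5, 127595664 to 127632897, minus strand) had normalised counts of 11969.7, 10596.5 and 11554.3 in Con, 14069.4, 13524.4 and 13184.0 in Van, and 9632.1, 12936.8 and 12279.3 in VanLip. The 3 Van libraries lay above all others on this scale, while on the FPKM scale VanLip replicate 2 (51.9) exceeded Van replicate 3 (51.4).

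For Slc15a4 the log2 fold change was 0.26 (SE 0.11, DESeq2 adjusted p = 0.20) for Van against Con and -0.23 (SE 0.11, DESeq2 adjusted p = 0.202) for VanLip against Van. The first of these passed when the fit held only the Con and Van libraries (adjusted p = 0.00606) or lacked VanLip replicate 1 (adjusted p = 0.00857), with the same fold change of 0.26. For VanLip against Van the value ranged from -0.31 to -0.11 when 1 library was left out. VanLip and Con differed by 0.03 (95% interval -0.18 to 0.25). Of the 100-base windows of the main Slc15a4 transcript, 12.4% also occur on the opposite strand in the transcript of the antisense gene Gm43474, so its estimate is uncertain if strand was not used in the counting. Slc15a3 overlaps Tmem132a on the opposite strand as a gene, but its main transcript shared 0 of 2246 such windows with any other gene.

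Pglyrp1 (ENSMUSG00000030413, chromosome 7, 18871331 to 18890459, plus strand) encodes a secreted peptidoglycan recognition protein with antibacterial activity. Its FPKM was 155.1, 125.5 and 157.4 in Con, 190.4, 154.3 and 142.9 in Van, and 134.3, 243.3 and 167.8 in VanLip. VanLip replicate 2 held the highest level and the VanLip group spanned nearly the whole range. The log2 fold changes were 0.15, 0.30 and 0.15 (SE 0.19 each, DESeq2 adjusted p = 0.841, 0.406 and 0.737) for Van against Con, VanLip against Con and VanLip against Van. Single libraries moved these values: for VanLip against Con the value was 0.04 without VanLip replicate 2, 0.47 without VanLip replicate 1 and 0.20 without Con replicate 2, and for VanLip against Van it was -0.11 without VanLip replicate 2. For Van against Con it ranged from 0.01 to 0.23 when 1 library was left out. Pglyrp1 is also abundant in neutrophils. In VanLip replicate 2 the 12 neutrophil markers summed to 26.7 FPKM, of which Mmp8 made up 21.2, S100a8 2.54 and S100a9 0.991, with Ly6g at 0, and the part of neutrophil RNA in the Pglyrp1 values was not tested.

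The lysozyme genes are neighbours on chromosome 10, and their near-identical coding sequences matter for how far their values can be separated. Lyz1 (ENSMUSG00000069515, 117287797 to 117292868, minus strand) encodes the lysozyme known from intestinal Paneth cells, and Lyz2 (ENSMUSG00000069516, 117277331 to 117282321, minus strand) the lysozyme of macrophages and other myeloid cells. Their coding sequences of 444 bases differ at 22 positions and are 95.0% identical. The first 150 coding bases hold 14 of the differences, in capitals here, as read from the GRCm38 genome, 5′ to 3′ on the coding strand.
Lyz1 coding bases 1 to 150: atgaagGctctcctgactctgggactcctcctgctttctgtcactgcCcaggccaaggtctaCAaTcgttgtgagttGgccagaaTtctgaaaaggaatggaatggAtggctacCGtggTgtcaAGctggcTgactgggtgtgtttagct
Lyz2 coding bases 1 to 150: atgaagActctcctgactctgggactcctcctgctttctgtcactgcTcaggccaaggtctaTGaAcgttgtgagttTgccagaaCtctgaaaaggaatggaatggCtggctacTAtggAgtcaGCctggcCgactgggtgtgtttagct
The longest run without a difference, 118 bases long from coding base 276 to 393, is given next because a read that falls within it cannot be assigned by its letters.
Lyz1 and Lyz2 shared run: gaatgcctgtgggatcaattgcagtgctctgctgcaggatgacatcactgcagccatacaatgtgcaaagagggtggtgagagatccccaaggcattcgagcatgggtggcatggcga
Over the whole transcripts, 24 of 1164 windows of 100 bases in Lyz1 (2.06%) and 24 of 1217 in Lyz2 (1.97%) were identical in the other gene, whereas no window of 150 bases was. The window lengths are those that the low counts imply for a read in the Con and Van libraries and in the VanLip libraries.

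Lyz1 fell in VanLip. Its normalised count was 14267.3, 13517.2 and 12539.8 in the Con libraries, 10599.2, 12540.7 and 12981.3 in the Van libraries, and 7970.4, 8192.7 and 6854.1 in the VanLip libraries. Con and Van overlapped, and all VanLip libraries lay below all other libraries. The log2 fold change was -0.81 (SE 0.10, DESeq2 adjusted p = 3.57e-12) for VanLip against Con, with VanLip at 57.1% of the Con mean, and -0.65 (SE 0.10, DESeq2 adjusted p = 4.26e-08) for VanLip against Van. For Van against Con it was -0.16 (SE 0.10, DESeq2 adjusted p = 0.526). The adjusted p ranged over the alternatives from 5.26e-16 to 0.0301 against Con and from 1.88e-10 to 0.0351 against Van, so that Lyz1 was called under each of them.

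Lyz2 was the most abundant transcript per length in every library. Its FPKM was 8052, 8324 and 7663 in Con, 6428, 7869 and 8246 in Van, and 9154, 7723 and 7838 in VanLip, and it took 0.972 to 1.41% of all counts of a library. The groups overlapped, with Van replicate 1 lowest and VanLip replicate 1 highest. The log2 fold changes were -0.11, 0.02 and 0.13 (SE 0.11 each, DESeq2 adjusted p = 0.77, 0.953 and 0.567), and the 95% interval for VanLip against Con was -0.19 to 0.23.

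Lyz1 was low beside Lyz2 in all libraries. On the FPKM scale it stood at 1.45, 1.33 and 1.37% of Lyz2 in Con, 1.36, 1.35 and 1.30% in Van, and 0.719, 0.897 and 0.733% in VanLip. The group means were 1.39% ± 0.06, 1.34% ± 0.03 and 0.783% ± 0.099 (SD, n = 3 each). The VanLip libraries lay below all others in this ratio too, and the part of read length in the Lyz1 difference was not tested.

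**Figure D4:**
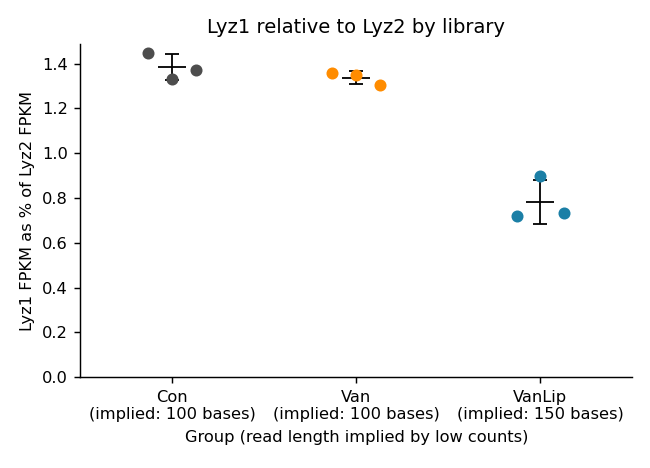
Lyz1 FPKM as a percentage of Lyz2 FPKM (y axis, from 0) in the 9 libraries by group, with the group mean and SD (n = 3) and the read length implied by the low counts under each group. The Con and Van libraries lie between 1.30 and 1.45% and the VanLip libraries, whose low counts imply 150-base reads, between 0.719 and 0.897%.

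Lyz2 and Pglyrp1 varied between libraries together with the summed level of nonclassical monocyte markers. Nr4a1 made up 1006 to 1485 of the sum, which was 2539 to 3534, and single markers did not all follow it, since Van replicate 1 had the highest sum but a Cx3cr1 FPKM of 112.6 and an Eno3 FPKM of 103.8, within or below the Con values (116.1 to 124.7 and 95.2 to 137.6). The relation of each of the 8 genes other than Nod2 to the summed classical and the summed nonclassical marker FPKM was computed on log2 values over the 9 libraries, 16 relations in all, a test that was chosen after the data were seen. Lyz2 was lower where the nonclassical markers were higher (Pearson r = -0.89, exact permutation p = 5.24e-05, adjusted p = 0.000838, and Spearman rho = -0.95, exact permutation p = 0.000353, adjusted p = 0.00564). Pglyrp1 was higher where they were higher (Pearson r = 0.86, exact permutation p = 0.00229, adjusted p = 0.0183, and Spearman rho = 0.85, exact permutation p = 0.00607, adjusted p = 0.0486). The permutations exchanged libraries across the groups, so these p-values do not measure a relation within a group.

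Without Van replicate 1 and VanLip replicate 2, the libraries farthest from the median of the nonclassical sum, r was -0.91 for Lyz2 and 0.77 for Pglyrp1. Over the 6 Con and Van libraries, which share the lowest count step, r was -0.97 for Lyz2 (exact permutation p = 0.00278) and 0.92 for Pglyrp1 (exact permutation p = 0.00972), and the VanLip libraries were too few for a value of their own. In the Con and Van libraries alone Lyz1 also followed the sums (r = -0.86 nonclassical, 0.87 classical), as did Slc15a3 (r = 0.80 and -0.84). With all 9 libraries these r were -0.13 and -0.35 for Lyz1 and 0.19 and -0.015 for Slc15a3. Lyz2 also rose with the classical markers (Pearson r = 0.91, exact permutation p = 0.00506, adjusted p = 0.027), but Spearman rho was 0.63 (exact permutation p = 0.076, adjusted p = 0.174) and r fell to 0.35 without Van replicate 1 and VanLip replicate 1, so over the 9 libraries it did not hold without that pair. Over the 6 Con and Van libraries r was 0.94 and rho 0.89 for this relation (exact permutation p = 0.0139 for r). FPKM values of a library share 1 total, which ties all of them together.

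**Figure D5:**
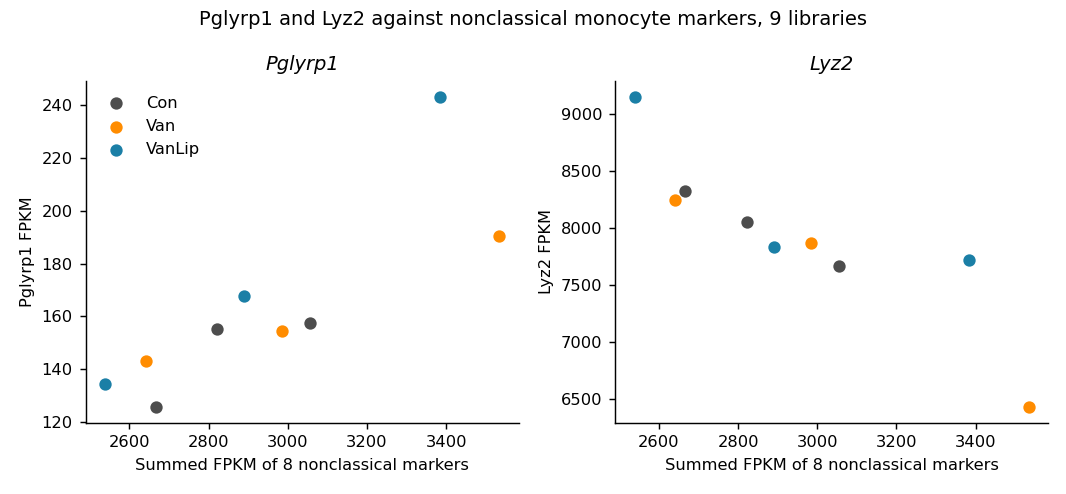
FPKM of Pglyrp1 (left) and Lyz2 (right) on the y axis, not started at 0, against the summed FPKM of 8 nonclassical monocyte markers on the x axis, with a point for each of the 9 libraries coloured by group. Pglyrp1 rises (r = 0.86) and Lyz2 falls (r = -0.89) with the marker sum on the log2 scale.

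The other genes of the pathway were examined as 6 lists of 62 symbols, of which 61 were in the tables, 58 were detected and 57 had an adjusted p. Pglyrp3, Pglyrp4 and the plasma membrane peptide transporter gene Slc15a1 were at 0 in every library. DESeq2 called 7 of these 57 genes for Van against Con (3 higher, 4 lower), 3 for VanLip against Con (1 higher, 2 lower) and 7 for VanLip against Van (3 higher, 4 lower), beside shares over all genes of 4.33%, 6.67% and 9.85%. No difference from these shares was tested. The median log2 fold changes were -0.02, -0.07 and -0.07, beside -0.01, 0.01 and 0.01 over all genes tested. The edgeR quasi-likelihood test called 0, 0 and 4 of them.

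Among the 20 genes for ubiquitin ligases and kinases that act with RIPK2, 3 were called with Van against Con, 1 with VanLip against Con and 3 with VanLip against Van, to be read against the same shares over all genes (4.33%, 6.67% and 9.85%). Tab1, which encodes a partner of the kinase TAK1, was higher in VanLip, with log2 fold changes of 0.33 against Con (DESeq2 adjusted p = 0.011) and 0.41 against Van (DESeq2 adjusted p = 0.000336). Ikbkg, which encodes the regulatory subunit of the IkB kinase complex, was lower in Van than in Con (-0.25, DESeq2 adjusted p = 0.0204) and higher in VanLip than in Van (0.23, DESeq2 adjusted p = 0.0196). Mapk14, the gene of p38 alpha, was higher in Van than in Con (0.18) and lower in VanLip than in Van (-0.24). Mapk9, the gene of the kinase JNK2, was lower in Van than in Con (-0.26).

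The calls in the 4 lists that follow are likewise read against the shares over all genes (4.33%, 6.67% and 9.85%). Of the 5 genes that act with CARD9, Syk, the gene of the kinase upstream of CARD9, was called higher in Van than in Con (log2 fold change 0.38, SE 0.10, DESeq2 adjusted p = 0.0052) and lower in VanLip than in Van (-0.51, SE 0.10, DESeq2 adjusted p = 1.2e-05). Of 5 genes that act with SLC15A4 in endosomal signalling, Unc93b1, which encodes the chaperone of endosomal Toll-like receptors, was lower in Van than in Con (-0.27, DESeq2 adjusted p = 0.0409). Of the 11 detected genes that restrain NOD signalling, the deubiquitinase gene Usp21 was higher in Van than in Con (0.26), Cyld was lower in VanLip than in Con (-0.31) and Nfkbia, which encodes the inhibitor IkB alpha, was lower in VanLip than in Van (-0.40, DESeq2 adjusted p = 0.0391). Of the genes of muropeptide entry and handling, 5 of 8 were detected and 4 had an adjusted p, and DESeq2 called 0 of them in each comparison, where 0, 1 and 0 had an unadjusted p under 0.05 for Van against Con, VanLip against Con and VanLip against Van.

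Of 12 genes that NOD2 stimulation is known to induce, 11 had a log2 fold change below 0 for VanLip against Con, with a median of -0.32, and Ccl2 alone passed (-0.73, SE 0.22, DESeq2 adjusted p = 0.0232), where 6.67% of all genes were called. Below 0 in that comparison were also 17 of the 20 genes of the RIPK2 list and 48.5% of all genes with an adjusted p. The median of the RIPK2 list was -0.05, and some of its values were near 0, such as -0.003 for Nfkb1 and -0.005 for Rnf31. With TMM library sizes the values of all genes shifted by a median of 0.025, so signs this near 0 depend on the scaling. Ccl2 encodes a chemokine that attracts monocytes, and its VanLip and Con libraries overlapped. For Van against Con, 7 of the 12 genes were below 0 with a median of -0.10, beside 12 of the 20 genes of the RIPK2 list and 51.2% of all genes. For VanLip against Van, 11 of the 12 genes were below 0 with a median of -0.18, beside 9 of the 20 genes of the RIPK2 list and 48.1% of all genes. In that comparison, where 9.85% of all genes were called, the chemokine gene Ccl4 was lower (-0.66, SE 0.22, DESeq2 adjusted p = 0.0324). The transcription factor gene Irf4 was the only gene of this list called with Van against Con, where it was lower (-0.57, SE 0.15, DESeq2 adjusted p = 0.0095, with 4.33% of all genes called) and was higher in VanLip than in Van (0.65, SE 0.15, DESeq2 adjusted p = 0.000583). Several of these genes share regulators, so their directions are not independent of each other, and no difference from all genes was tested.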

How the data were processed

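RNA sequencing of splenic monocytes was analysed in 9 libraries, 3 each of Con, Van and VanLip, with groups taken from the titles. According to the protocols per the labels, the authors used a stranded TruSeq kit, aligned reads to GRCm38 with HISAT2 2.2.1 and SAMtools 1.9, and estimated FPKM with StringTie 2.1.3. The authors deposited these FPKM and expected counts per gene made from them with tximport, and their notes also name DESeq2 1.38.3. The annotation release and the strand setting are not given in the sources used here. Columns of no sample numbered 0.

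The expected counts, rounded, were analysed by the DESeq2 1.42.0 Wald test (R 4.3.3), with all 9 libraries in 1 fit, group as the only term and the 26108 genes detected in at least 1 library. P-values are two-sided, were adjusted by the Benjamini-Hochberg method over all genes, and calls required an adjusted p no higher than 0.05. Levels between genes were compared as FPKM only. Alternatives used edgeR 4.0.16 and limma 3.58.1 on log2(FPKM + 1) or log2(FPKM + 0.1), a mean FPKM of at least 1, library sizes from TMM, a minimum of 10 counts in 3 or more libraries, no independent filtering, 2 groups only, a replicate block, thinning of VanLip to 20090683 fragments, and leaving out each library. The scripts were tested on simulated data.

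Every gene of the chosen set was named, with pathway genes called in any comparison or at 0 throughout, the 5 genes most like Nod2, its nearest neighbours, and markers that move with a result. The set and the lists were chosen with earlier results of these data known. Positions are from GENCODE M21 on GRCm38 and promoters from RefSeq on GRCm38.p6, which held 7 of the 9 genes. Depth was 16151385 to 46180176 fragments per library, and each gene of the set had a normalised count of 2486.8 or more in every library. P-values measure only the spread between these libraries.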

Additional observations from a re-analysis of the deposited data

How the results depend on the processing

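Of 513 values of the 27 log2 fold changes of the 9 genes under 19 alternatives, 490 kept their direction and, where tested, their side of the threshold, among them every value of Lyz1, and Nod2, which was not tested, kept its direction. Ripk2 and Slc15a4 gained calls under the 4 alternatives named with them, and the other 19 values, none of them called, changed sign. With limma on log2(FPKM + 1), on log2(FPKM + 0.1) and on genes whose mean FPKM was 1 or more, Slc15a3 for VanLip against Van was 0.03 and Slc15a4 for VanLip against Con was -0.03 each time, and Lyz2 for VanLip against Con was -0.00 with the smaller pseudocount. Leaving out 1 library gave -0.13 to 0.00 for Nod1, -0.15 to 0.01 for Slc15a3 and -0.11 to 0.32 for Pglyrp1 for VanLip against Van. It gave -0.03 to 0.13 for Slc15a3, -0.05 to 0.15 for Slc15a4 and -0.07 to 0.07 for Lyz2 for VanLip against Con, and -0.03 to 0.07 for Card9 for Van against Con. The cause of these changes was not tested.

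Counts of calls depended more on the tool. Beside 803, 1105 and 1777 genes called by DESeq2 for Van against Con, VanLip against Con and VanLip against Van, edgeR called 204, 300 and 855, limma on log2(FPKM + 1) called 92, 237 and 688, limma on log2(FPKM + 0.1) called 17, 168 and 516, and limma with a mean FPKM of at least 1 called 90, 339 and 829. Thinning VanLip gave 733 genes for VanLip against Con. Leaving out 1 library gave 425 to 913, 606 to 1276 and 1142 to 1666 genes. Of the pathway genes, 7, 3 and 7 with DESeq2, edgeR called 0, 0 and 4, limma 0, 0 and 3 with the larger and 0, 0 and 1 with the smaller pseudocount, limma with a mean FPKM of at least 1 called 0 and 0 in the first 2 comparisons, and DESeq2 without independent filtering called 4 for Van against Con. Leaving out 1 library gave 1 to 9, 0 to 8 and 5 to 9 pathway genes, and 0 to 1, 1 to 2 and 1 of the 8 tested genes. A fit of only Con and Van called 1 of the 8. Of the 5 genes most like Nod2, 0 were among the 5 over Con and Van only and 3 with log2(FPKM + 1).

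The replicate numbers were shared by the groups, and deviations of same-numbered libraries correlated at -0.05 to 0.09. Such a correlation over many genes cannot show whether these libraries share a batch that touches only some genes. With a replicate block 932, 1146 and 1644 genes were called, with 2, 2 and 4 pathway genes and 0, 1 and 1 of the 8 tested genes.

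With 3 libraries a group, outliers within a group were not tested. Read length, depth and the VanLip group cannot be told apart by any alternative.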

Other observations

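Upstream windows of the other genes were searched for the same motifs in RefSeq promoters, of which Ripk2 and Slc15a3 had none. The GC box shown for Nod2 also matched at 2 places in Slc15a4 and at 1 place each in Pglyrp1 and 1 of the 2 promoters of Nod1, and not in Card9, Lyz1 or Lyz2. Pglyrp1 held 1 match to the NF-kB consensus, and the 6 other genes searched held none. The ETS-type motif GGAAGT matched at 1 place in each of Lyz1, Lyz2 and 1 of the 2 promoters of Nod1 and at 2 places in Card9. The C/EBP-type motif TTNNGNAA matched at 1 place in Lyz1, Lyz2 and Card9. No window held AP-1 or TATAAA. These matches are a description of letters, and binding was not measured.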
